A study of Mus musculus with 2 samples.

Results

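The genes described here carry folate into cells and pass single-carbon units between folate forms. They comprised the reduced folate carrier gene Slc19a1, the serine hydroxymethyltransferase genes Shmt1 and Shmt2, the multifunctional folate enzyme genes Mthfd1, Mthfd1l and Mthfd2, and the methionine synthase gene Mtr. They were chosen by symbol. All 7 matched an entry among the 69691 features of the gene tables, 42462 of which could be named. The data were 2 total RNA libraries of dissected forebrain from mouse embryos (strain B6NCrl, embryonic day 12.5), with no treatment or engineered allele given in the labels. Replicate 1 was a pool of 120 embryos and replicate 2 a pool of 68, each of mixed sex, so neither library describes a single animal. The pools form 1 group with n = 2, no condition is contrasted, and every comparison below is between genes or between the pools, described without a test.

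Folate carries one-carbon units that cells need to make thymidylate and purines and to remethylate homocysteine to methionine. The pathway runs in parallel in the cytosol and in mitochondria: serine hydroxymethyltransferases load the unit from serine, dehydrogenase and cyclohydrolase activities interconvert the loaded folates, and a formyltetrahydrofolate synthetase links them to formate, which passes between the compartments. The pathway is well known in the developing brain because maternal folate supply affects neural tube closure.

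The enzymes of the same reaction are related genes whose products work in different compartments, and their coding sequences were compared first because the expression comparisons below set these pairs against each other. The lines give the first 120 coding bases of each leading transcript, from GENCODE M21 on build GRCm38, from 5′ to 3′. The coding sequences start at chr11:60807023 (minus strand) for Shmt1, chr10:127522320 (minus strand) for Shmt2, chr12:76255504 (plus strand) for Mthfd1, chr10:3973255 (plus strand) for Mthfd1l and chr6:83317529 (minus strand) for Mthfd2. Capitals mark the bases of a mitochondrial enzyme that lie before the start of its alignment to the cytosolic enzyme.
Shmt1: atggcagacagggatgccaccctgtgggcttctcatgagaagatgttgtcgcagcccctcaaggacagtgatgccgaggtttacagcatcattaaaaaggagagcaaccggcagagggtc
Shmt2: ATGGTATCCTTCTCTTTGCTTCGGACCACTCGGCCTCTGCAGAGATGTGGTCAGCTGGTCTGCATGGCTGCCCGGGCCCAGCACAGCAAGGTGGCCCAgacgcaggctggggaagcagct
Mthfd1: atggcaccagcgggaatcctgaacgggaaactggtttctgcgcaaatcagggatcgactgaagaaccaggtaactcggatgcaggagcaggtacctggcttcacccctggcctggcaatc
Mthfd1l: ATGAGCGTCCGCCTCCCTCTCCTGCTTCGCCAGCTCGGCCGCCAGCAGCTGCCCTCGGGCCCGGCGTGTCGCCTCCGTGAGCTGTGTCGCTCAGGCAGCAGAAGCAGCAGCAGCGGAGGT
Mthfd2: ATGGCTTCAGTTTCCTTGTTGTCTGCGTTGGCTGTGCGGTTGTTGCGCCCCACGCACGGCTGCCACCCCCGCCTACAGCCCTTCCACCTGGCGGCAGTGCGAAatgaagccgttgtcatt

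The Shmt1 and Shmt2 coding sequences, of 1434 and 1512 bases, were 65.6% identical over 1406 aligned bases, and 98 bases of Shmt2 preceded the alignment. Mthfd1 and Mthfd1l, of 2805 and 2931 bases, were 64.9% identical over 2721 aligned bases, and 178 bases of Mthfd1l came first, more than the 120 shown. Mthfd2 has a shorter coding sequence of 1050 bases, of which 886 aligned to Mthfd1 at 61.6% identity after 103 leading bases. Nuclear genes for mitochondrial proteins commonly encode a targeting stretch at the start of the protein. The alignment was of bases, so the capitals do not define such a stretch. The shown start of Mthfd1l had the highest GC content of the 5, at 70.8%, against 54.2% for Shmt1.

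Shared sequence between genes, which can blur the assignment of reads, was rare. No window of 100 bases in the leading transcript of 6 of the 7 genes occurred in a transcript of another gene. The exception was Shmt1, in which 85 of 2759 windows (3.08%) also lay in Smcr8, the neighbouring gene that overlaps it by 184 bases on the opposite strand. In windows of 50 bases, 4.81% of Shmt1 was shared with Smcr8 and 1.83% of Shmt2 with Gm15544. Smcr8 was listed at 9.44 and 9.04 TPM. The sources used here do not say whether reads were counted by strand, so reads from the overlap could not be assigned to either gene with certainty. The gene body of Slc19a1 overlaps Col18a1 by 8825 bases on the opposite strand, without a shared window of 100 bases in its leading transcript. The gene body of Mthfd1 overlaps the antisense gene Gm34868 by 19090 bases, and that of Shmt2 overlaps Ndufa4l2 by 32, both on the opposite strand. Gm34868 had no entry among the features.

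Abundance is given as TPM, a length-scaled share of all measured transcripts, and detection means at least 1 TPM in both pools. All 7 genes were detected, where 60.0% of 21461 nuclear protein-coding genes were. Together they held 12031 expected counts in replicate 1 and 12033 in replicate 2, of library totals of 33711030 and 34578499. The median detected protein-coding gene had 21.6 TPM: Shmt2, Mthfd1, Shmt1, Mthfd2 and Slc19a1 lay above it, and Mthfd1l and Mtr below it.

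Slc19a1, which imports reduced folates across the cell membrane (chr10:77032241-77061002, plus strand), was measured at 27.9 TPM in replicate 1 and 24.9 in replicate 2 (26.4 ± 2.17, SD, n = 2). The deposited intervals around the posterior mean were 26.4 to 31.8 and 23.6 to 28.5 TPM, and they overlapped. The carrier ranked above 55.6% of detected protein-coding genes.

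Of the cytosolic enzymes, Mthfd1, whose product combines dehydrogenase, cyclohydrolase and synthetase activities (chr12:76255298-76319803, plus strand), was the most abundant. It had 51.7 TPM in replicate 1 and 48.4 in replicate 2 (50.1 ± 2.35), from 3363 and 3276 expected counts. Shmt1, which in the cytosol transfers a carbon from serine to tetrahydrofolate (chr11:60788104-60811718, minus strand), had 43.3 and 41.3 TPM (42.3 ± 1.46). Its intervals, 39.8 to 47.5 and 38.9 to 45.6 TPM, were wider than those of Mthfd1, at 48.6 to 52.0 and 45.5 to 48.7 TPM. Mtr, which uses methyltetrahydrofolate to regenerate methionine (chr13:12182712-12258113, minus strand), had the lowest level, 8.57 TPM in replicate 1 and 7.32 in replicate 2 (7.95 ± 0.884). It was the only one of the 7 whose pool intervals did not overlap, at 7.76 to 8.94 against 6.60 to 7.67 TPM. The deposited Mtr model was 4482 bases long, and the same transcript has 8294 bases in GENCODE M21, so the Mtr level depends on which model the reads were scaled by.

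Of the mitochondrial enzymes, Shmt2, the mitochondrial serine hydroxymethyltransferase gene (chr10:127517123-127522444, minus strand), had the highest level of all 7. It had 71.95 TPM in replicate 1 and 70.1 in replicate 2 (71.0 ± 1.32), from 3199 and 3244 expected counts, and exceeded 81.1% of detected protein-coding genes. Mthfd2, the mitochondrial dehydrogenase and cyclohydrolase gene that is known as abundant in embryonic and proliferating cells (chr6:83305691-83325908, minus strand), had 29.4 and 27.7 TPM (28.5 ± 1.22). Mthfd1l, which completes the mitochondrial route by releasing formate (chr10:3973118-4167081, plus strand), had 9.22 and 9.26 TPM (9.24 ± 0.0283) from 657 and 642 expected counts. In total TPM Mthfd1l differed least between the pools, but its coding transcripts had 9.21 and 8.49 TPM. The non-coding transcript Mthfd1l-204 was listed at 0 and 0.77 TPM, and the gene's model length was 3637 and 3402 bases. The near-equal totals thus depend on how reads were assigned to transcripts. Mthfd1l stood above 29.1% of detected protein-coding genes, against 25.9% for Mtr.

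**Figure D1:**
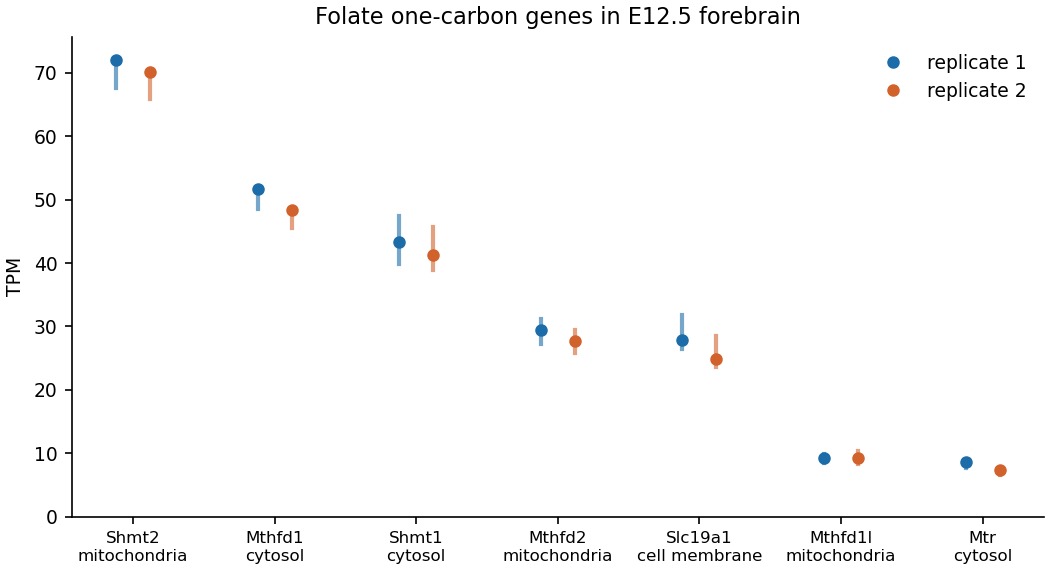
TPM of the 7 genes in each pool (points) with the deposited interval around the posterior mean TPM (vertical lines), ordered by mean. Shmt2 is highest near 71 TPM, and Mthfd1l and Mtr lie below 10 TPM; the points of Shmt2 and Mthfd1 sit near the upper end of their intervals, which belong to the posterior mean and not to the plotted TPM.

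A pair of genes was said to differ where, on log2(TPM + 1), the sign was the same in both pools and the smaller of the within-pool differences exceeded the larger change of either gene between pools. By this rule 19 of the 21 pairs differed. The share of other gene pairs that would pass was not computed, so the count is not a trait of these genes. The order was Shmt2, Mthfd1, Shmt1, Mthfd2, Slc19a1, Mthfd1l and Mtr. Neighbours that did not differ were Mthfd2 and Slc19a1, with log2 differences of 0.07 and 0.15, and Mthfd1l and Mtr, with 0.09 and 0.30. Mthfd1 and Shmt1 differed by the rule, 0.25 and 0.23 on the log2 scale, while their deposited intervals overlapped. The other 18 pairs that differed also had separate intervals in both pools.

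At the serine-loading step the transcript level was higher for the mitochondrial enzyme, and enzyme activity was not measured. The log2 difference of Shmt2 over Shmt1 was 0.72 in replicate 1 and 0.75 in replicate 2, a 1.68-fold ratio of mean TPM. The larger change of either gene between pools was 0.07, so the difference exceeded the spread. With protein-coding transcripts alone the ratio was 2.48-fold in replicate 1 and 2.16-fold in replicate 2. That ratio compares unequal models, since the tables hold 11 transcripts of Shmt1 and 1 of Shmt2, for which GENCODE M21 lists 7.

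The following steps were higher for the cytosolic enzyme. Mthfd1 exceeded Mthfd2, which shares its dehydrogenase and cyclohydrolase activities, by 0.79 and 0.78 on the log2 scale, a 1.75-fold ratio of mean TPM. Mthfd1 exceeded Mthfd1l, which shares its synthetase activity, by 2.37 and 2.27, a 5.42-fold ratio. Both differences exceeded the largest change between pools, 0.09. The related gene Mthfd2l, which encodes another mitochondrial dehydrogenase and cyclohydrolase, was listed at 35.6 TPM in both pools. Mthfd2l exceeded Mthfd2 in each pool, with log2 differences of Mthfd2 to Mthfd2l of -0.27 and -0.35 and separate intervals. Summed, Mthfd2 and Mthfd2l had 65.02 and 63.31 TPM, 1.26 and 1.31 times the level of Mthfd1, so the direction at this step depends on whether Mthfd2l is included. Of the Mthfd2l transcript, 4.36% of 50-base windows also occurred in Gm14942.

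**Figure D2:**
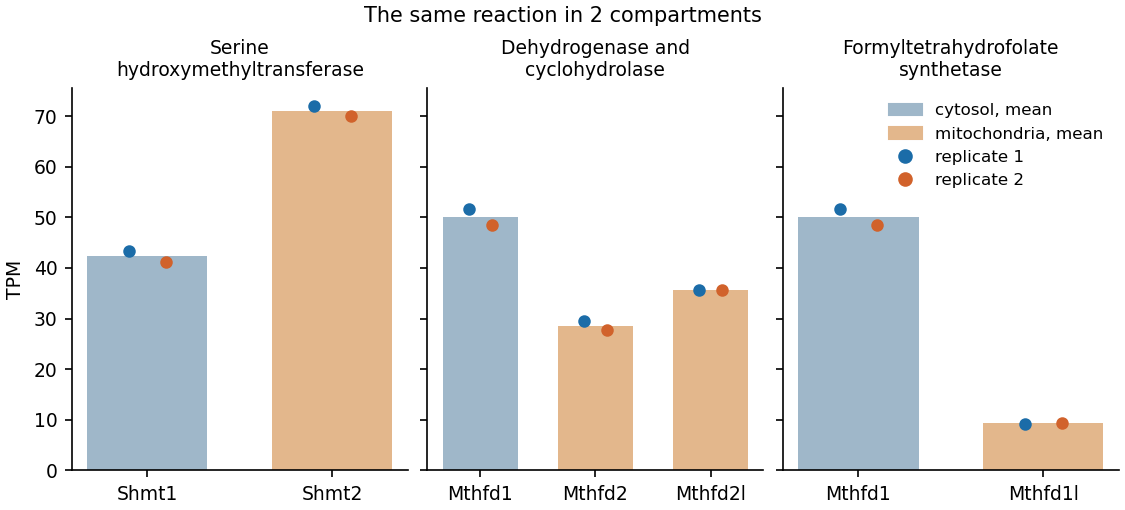
Mean TPM (bars, from 0) and the value in each pool (points) of the cytosolic and mitochondrial enzymes of each reaction. Shmt2 stands above Shmt1, while Mthfd1, drawn under both of its activities, stands above Mthfd2, Mthfd2l and Mthfd1l taken singly.

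As groups of 3, the compartments had no order that held under every summary. The mitochondrial median (Shmt2, Mthfd2, Mthfd1l) was below the cytosolic median (Shmt1, Mthfd1, Mtr), with log2 differences of -0.54 in replicate 1 and -0.56 in replicate 2. The means of the log2 values differed in the other direction, by 0.00647 and 0.0893, and the summed TPM was 111 against 104 in replicate 1 and 107 against 97.0 in replicate 2. The ratio of sums was 1.07 and 1.10. Medians of 3 genes are single genes: the median comparison was Mthfd2 against Shmt1, and Shmt2 was the largest part of the mitochondrial sum. Shmt2 alone supplied 29.7% of the summed TPM of the 7 genes in replicate 1 and 30.6% in replicate 2, Mthfd1 21.4% and 21.2%, and Mtr 3.54% and 3.20%.

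In each of the 7 genes the leading transcript was protein-coding. Shmt2, Mthfd1 and Mtr each had 1 transcript in the tables, and Mthfd2-201 held 96.7% and 99.2% of Mthfd2. Shmt1 had the largest portion without a protein-coding class. Shmt1-201, the coding transcript of 12 exons, held 66.9% of the gene's TPM in replicate 1 and 77.9% in replicate 2. Retained-intron and processed forms made up 33.1% and 21.2%, or 14.3 and 8.75 TPM, including Shmt1-205 (11.3% and 7.77%), Shmt1-206 (8.37% and 7.51%) and Shmt1-208 (8.98% and 3.22%). The coding part was 29.0 and 32.5 TPM, so it was higher in replicate 2 while the gene total was higher in replicate 1. The interval of Shmt1-201 ran from 25.7 to 29.8 TPM in replicate 1 and from 28.7 to 32.5 TPM in replicate 2, and these overlapped.

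Mthfd1l was led by Mthfd1l-202 at 75.8% and 76.0%, followed by Mthfd1l-201 at 24.2% and 15.04%. Both forms have a coding sequence of 2931 bases. Their last exons start 108 bases apart, and none of those bases is coding. The non-coding Mthfd1l-204 was listed at 0 in replicate 1 and held 8.30% in replicate 2, from 9.53 expected counts.

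**Figure D3:**
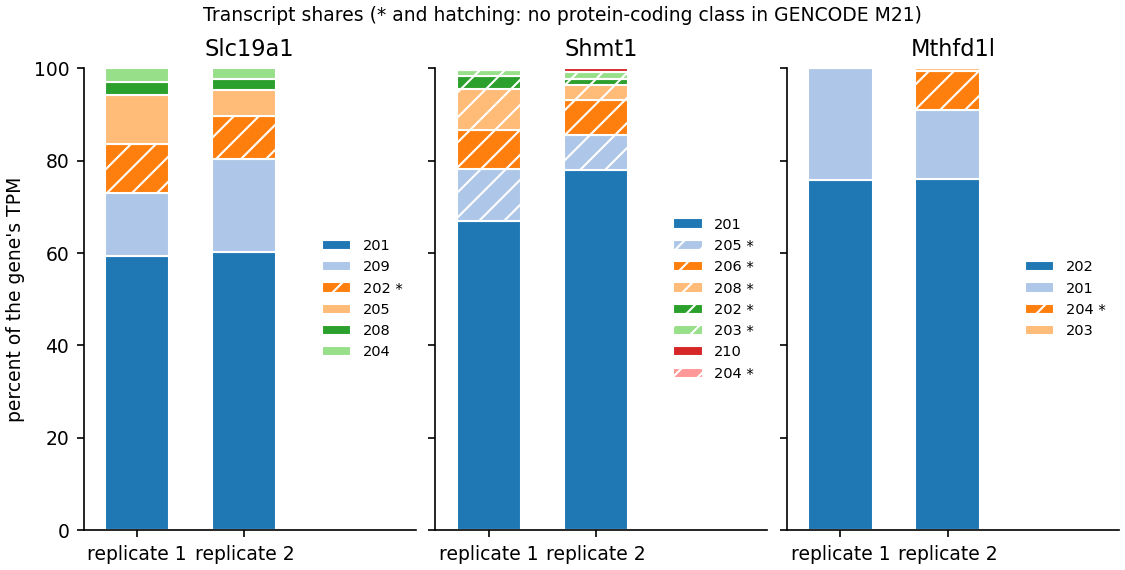
Percent of each gene's TPM assigned to its transcripts in both pools; hatching and asterisks mark forms without a protein-coding class. The leading segment (bottom) holds about 60% of Slc19a1, 66.9% and 77.9% of Shmt1 and about 76% of Mthfd1l.

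Slc19a1 had shares on coding transcripts that start at separate first exons. Slc19a1-201 held 59.4% and 60.3% of the gene's TPM, and its first exon lies at chr10:77033212-77033347. Slc19a1-209, whose first exon lies upstream at chr10:77032684-77032780, held 13.7% and 20.1%. Both exons are non-coding, and both transcripts carry the same coding length of 1536 bases from position 77038397. The intervals of Slc19a1-209, 0.781 to 8.23 TPM and 1.61 to 9.44 TPM, were broad and overlapped, so its share is known only roughly. Those of Slc19a1-201, 11.5 to 19.2 TPM and 9.49 to 17.4 TPM, were broad too. By posterior mean TPM, Slc19a1-201 held 54.0% and 52.0%. Slc19a1-205 held 10.5% and 5.75%, and the retained-intron form Slc19a1-202 held 10.6% and 9.14%.

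The 150 bases before each of these first exons are shown because they precede the alternative starts, from the RefSeq promoter table on GRCm38.p6, plus strand: chr10:77033062-77033211 before Slc19a1-201 and chr10:77032534-77032683 before Slc19a1-209. Capitals mark GGGCGG, the letters of a GC box, searched on both strands. The E-box letters CACGTG were searched in the same way. So were the letters TATAAA of a TATA box. The CCAAT box was searched by its letters too. No match overlapped another.
Slc19a1-201: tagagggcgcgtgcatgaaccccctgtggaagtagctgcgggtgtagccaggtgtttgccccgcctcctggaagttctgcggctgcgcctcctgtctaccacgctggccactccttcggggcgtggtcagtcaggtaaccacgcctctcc
Slc19a1-209: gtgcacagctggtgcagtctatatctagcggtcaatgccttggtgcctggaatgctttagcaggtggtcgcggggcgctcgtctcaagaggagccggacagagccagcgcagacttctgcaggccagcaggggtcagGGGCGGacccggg

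The stretch before Slc19a1-209 held 1 GGGCGG and the stretch before Slc19a1-201 held none. Neither held the letters of the E-box, the TATA box or the CCAAT box. Of 32851 RefSeq promoters, 28.6% had the GC box letters in the 150 bases before the start. The E-box letters were in 4.30% of them and the TATA box letters in 7.57%. Those of the CCAAT box were in 24.5%. These shares count from RefSeq starts, and the RefSeq start for the upstream exon, 77032739, lies inside the first exon of Slc19a1-209. The 250 bases before that RefSeq start held 2 matches to the GC box letters. GC content was 64.7% before Slc19a1-201 and 64.0% before Slc19a1-209, with 10 and 9 CpG, where the median promoter had 54.0% and 4.

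Between the pools the 7 genes differed about as much as protein-coding genes of similar level. Their median absolute log2 ratio was 0.0875. It was 0.0905 over 8892 protein-coding genes within 1.5-fold of their range of mean TPM. None of the 7 was more than 25% higher in either pool than in the other. Of 15192 genes of any class at a mean of 1 TPM or more, 18.0% were. Of 12867 detected protein-coding genes, 1511 were. The largest fold was that of Mtr, 1.17, followed by Slc19a1, 1.12. Mthfd1l was slightly higher in replicate 2, and the other 6 were lower there, with a median log2 ratio of -0.09 against 0.01 over all genes. When TPM was rescaled to protein-coding genes, all 7 were lower in replicate 2, with Mthfd1l at -0.00101. With expected counts scaled by TMM or by median-of-ratios size factors, Mthfd1l was lower in replicate 2, Shmt1 was higher there, by 0.05 and 0.06 on the log2 scale, and the other 5 were lower.

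**Figure D4:**
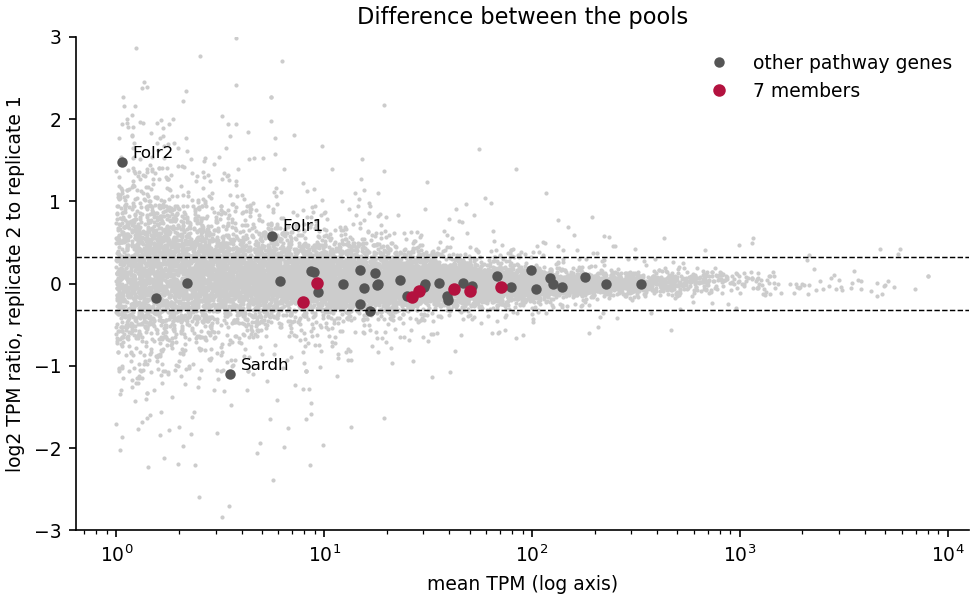
Log2 TPM ratio of replicate 2 to replicate 1 against mean TPM (log axis) for genes at a mean of 1 TPM or more (grey), other pathway genes (dark) and the 7 genes (red); dashed lines mark a 25% excess of either pool, and 8 genes beyond the vertical range are not drawn. The red points lie between the dashed lines, and Folr1, Folr2 and Sardh lie outside them.

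Of 41 other genes of the pathway and the steps it feeds, 35 were detected. At a mean of 1 TPM or more, 4 of 36 passed the same 25% limit between pools. The median level was 17.9 TPM for the 41 and 24.1 TPM for those 36, against 28.5 TPM for the 7. Shared sequence was computed for the 7 genes and Mthfd2l, and was not examined for these others.

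Among genes of uptake and retention, 4 of 5 were detected, and Slc19a1 was the highest of the carriers and receptors. Ggh, which trims folate polyglutamates, had 16.8 and 18.4 TPM, and Slc46a1, the proton-coupled folate transporter, had 15.8 and 15.2 TPM. Slc19a1 exceeded Slc46a1 1.70-fold by mean TPM, beyond the spread between pools. The folate receptor gene Folr1 had 4.49 TPM in replicate 1 and 6.73 in replicate 2, and Slc19a1 exceeded it 6.22-fold and 3.69-fold. Folr2, a folate receptor of macrophages, had 0.560 and 1.56 TPM from 11 and 32 expected counts. Both receptors were listed higher in replicate 2, Folr1 by 1.499-fold and Folr2 by 2.79-fold. Folr1 rested on 57 and 89 expected counts, and its intervals, 3.89 to 6.98 and 5.39 to 9.33 TPM, overlapped. The intervals of Folr2, 0.279 to 0.929 and 1.05 to 2.10 TPM, did not.

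Markers of other cell types also differed between the pools. The summed level of 5 choroid plexus and roof plate markers, of which Folr1 is one, was 90.5 TPM in replicate 1 and 167 in replicate 2. Without Folr1 the other 4 summed to 86.0 and 160 TPM, a ratio of 1.86. The ratio of summed markers in replicate 2 to replicate 1 was 1.14 for microglia, 1.21 for meninges and 1.35 for erythroid cells, with 5 of 5 genes higher in replicate 2 in each. For endothelium it was 1.04, with 2 of 5 genes higher. Neuronal markers had 0.940, with 2 of 5 higher. Radial glial markers had 0.943, with 3 of 5 higher, and 1.01 without Fabp7, which had 952 and 800 TPM. No gene was left out of the neuronal list in this way, so the 1.01 is not comparable with the neuronal ratio. Each list had 5 of 5 genes detected and none at 0, and the forebrain list, which includes Lhx2, Emx2, Nr2e1 and Six3, was detected in full, with sums of 374 and 399 TPM. The part of these cells in the levels of the receptors or of the 7 genes was not tested. In RNA from whole tissue, fewer cells of a type and less RNA per cell cannot be told apart.

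In the cytosol, Mthfs, which returns formyl folate to the pool, had 12.3 TPM in both. Ftcd, of histidine breakdown, was listed at 0 in both pools, where 3 counts would be 0.0891 and 0.0855 TPM. In mitochondria, Mthfd2l and then Mtfmt, which formylates the initiator tRNA (18.2 and 18.2 TPM), were the highest of the 6 others. Dmgdh, of choline breakdown, was listed at 0 and 0.0600 TPM. Aldh1l2, the mitochondrial formyltetrahydrofolate dehydrogenase gene, had 9.68 and 8.98 TPM and exceeded its cytosolic counterpart Aldh1l1, at 1.65 and 1.46 TPM. The log2 difference of Aldh1l1 to Aldh1l2 was -2.01 and -2.02. Sardh passed the 25% limit, at 4.81 and 2.24 TPM, although its expected counts were 169 and 170. Its model length, which follows the transcripts assigned, was 1841 bases in replicate 1 and 3719 in replicate 2.

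Thymidylate synthesis, which consumes the folate loaded by the serine hydroxymethyltransferases, was represented by Tyms at 175 and 186 TPM. Tyms exceeded every one of the 7 genes in both pools. In purine synthesis, Gart, which uses formyltetrahydrofolate at an early step, had 80.6 and 78.2 TPM, and Atic, of the late step, 30.7 and 30.6 TPM. Gart exceeded Atic 2.59-fold by mean TPM.

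The genes that supply serine, the carbon donor of Shmt1 and Shmt2, included Phgdh and Psat1, both above all 7: Phgdh had 228 and 226 TPM and Psat1 142 and 137 TPM. All 4 genes of the glycine cleavage system, which loads folate from the glycine that Shmt2 releases, were detected. Dld, a subunit shared with other dehydrogenases, had 126 and 125 TPM and the carrier protein gene Gcsh 93.2 and 105 TPM. Amt, the aminomethyltransferase gene of this system, also passed the 25% limit between pools, at 18.4 and 14.6 TPM.

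Mtr, at 7.95 TPM, lay near the median of the 10 other genes of the methionine cycle, 8.76 TPM. Mat2a, which makes S-adenosylmethionine from methionine, had 335 and 333 TPM, and Ahcyl1, related to the adenosylhomocysteinase gene, 107 and 103 TPM. Mtrr, the reductase that reactivates methionine synthase, had 8.49 and 9.36 TPM. Mtr and Mtrr did not differ by the rule, with log2 differences of 0.01 and -0.32. Genes of the alternative betaine route were near or at 0: Bhmt had 0.160 and 0.0900 TPM from 7 and 4 expected counts, and Bhmt2 0.0200 TPM in both from 1 count each. Mat1a, the adult liver form, was listed at 0 in both, where 3 counts would be 0.0479 and 0.0460 TPM. For the cobalamin cofactor of Mtr, all 5 handling genes were detected, the highest being Mmadhc at 119 and 125 TPM and the receptor gene Cd320 at 46.5 and 46.7 TPM.

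**Figure D5:**
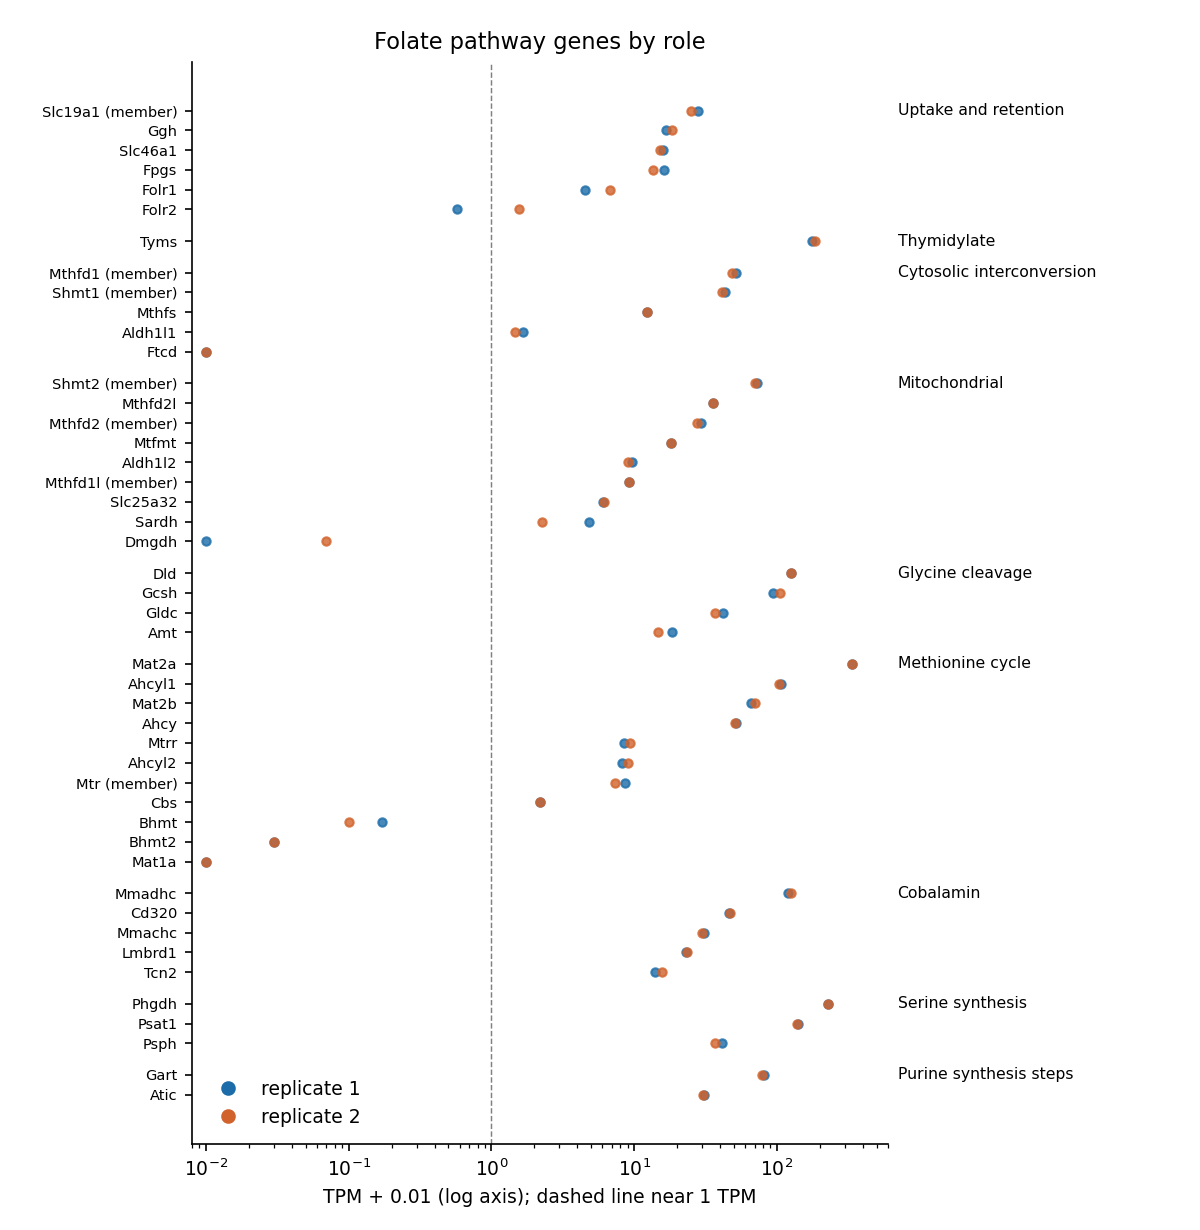
TPM plus 0.01 (log axis) of the 7 genes, marked as members, and of 39 other pathway genes in both pools, grouped by role and ordered by mean within each role; the dashed line is near 1 TPM. The 7 genes lie between 7.32 and 71.95 TPM, and Mat2a, Phgdh and Tyms are among the genes above all of them.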

How the data were processed

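Total RNA above a size limit of 200 bases was measured in 2 pools of embryonic forebrain, from 10 ng of RNA per library with ERCC spike-ins, per the labels. The authors' tables give expected counts, FPKM, TPM relative to all features with spike-ins included, and the percent of a gene's TPM that each of its transcripts holds. The deposited posterior mean TPM and interval bounds are handled as a score, and no source used here states the interval's level. Each replicate was quantified alone on mm10 with GENCODE M4, per the deposited description. The sources used here name neither the aligner nor the quantifier. The series is marked by its title as replaced by a later deposit, not used here. ERCC features held 9.19% and 8.25% of TPM. Depth was 33711030 and 34578499 expected counts.

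Names and positions came from GENCODE M21 by gene identifier. Levels were compared as log2(TPM + 1), which understates folds of low genes. Means and SDs are over 2 replicates, and with 1 group no p-value was computed. Intervals and the floors, set at 3 counts, reflect only counting and assignment of reads, and PCR copies cannot be recognised without molecular identifiers. Genes and lists were chosen with earlier results of these data known. A few genes under the naming rule are left out of the text. Named genes are the 7, the highest 2 of each role and any below 1 TPM, genes of fixed pairs, and those more than 25% apart between pools. Coding sequences were aligned with Biopython 1.88 (match 1, mismatch -1, gap opening -4, extension -0.5, end gaps free). Expected counts were rounded for edgeR 4.0.16 TMM and DESeq2 1.42.0 size factors, used as alternative scalings only. Other steps used Python 3.11.15, pandas 2.3.3, numpy 2.4.6 and R 4.3.3. The fold call was tested on simulated counts with counting noise alone, not on TPM. The pair rule was tested on a few set values with known answers.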

Additional observations from a re-analysis of the deposited data

How the results depend on the processing

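The 2 pools allow no test, and the pair rule and the fold between pools have no value with a replicate left out. The planned comparison of proteins was not run. Settings with protein-coding transcripts alone, with Mthfd2l added and with means in place of medians were chosen after seeing the data. Of 127 alternative values, 90 moved by less than the spread between pools or stayed within 1.5 times a count, 35 moved further and 2 reversed. With n = 2, a mean with 1 pool left out always moves by less than the SD, so those values are among the 90 by construction. The same holds for the transcript shares of Shmt2, Mthfd1 and Mtr, which have 1 transcript each. It also holds for members past 1.5-fold, since none passed the 25% limit. Dropping the filter on low genes cannot change the members either, since every member clears it. Apart from rounding, the ratio of TPM sums cannot move with FPKM or with rescaled TPM. The 90 are therefore no measure of stability. The counts of detected genes, differing pairs and members past the 25% limit stayed within that range, while the share of all genes past it (18.0%) was 7.54% at a limit of 1.5-fold and 41.1% with no filter on low genes. The compartment difference in medians (-0.55) reversed in sign to 0.0479 with means in place of medians, a value below its SD between pools, 0.0585. It was -0.58 with posterior mean TPM, -0.74 with counts not divided by length, -0.57 and -0.50 with pseudocounts of 0.1 and 5, -0.13 with coding transcripts alone, -0.67 without Mtr and -0.40 with Mthfd2l added. The ratio of TPM sums (1.09) reversed to 0.840 with counts not divided by length, where longer genes weigh more by construction, and was 1.21 with coding transcripts alone, 1.18 without Mtr and 1.44 with Mthfd2l added. Shmt2 over Shmt1 (log2 0.73) was 0.67 with posterior mean TPM, 0.68 with a pseudocount of 5 and 1.18 with coding transcripts alone. Mthfd2 over Mthfd1 (-0.79) was -0.76 with posterior mean TPM, -0.78 with FPKM, -1.51 with counts not divided by length, -0.81 and -0.72 with pseudocounts of 0.1 and 5 and -0.82 with coding transcripts alone. Mthfd1l over Mthfd1 (-2.32) was -2.25 with FPKM and -2.42 and -1.95 with those pseudocounts. With posterior mean TPM the mean leading transcript share moved from 59.84% to 52.975% for Slc19a1. It moved from 97.97% to 95.5% for Mthfd2 and from 75.89% to 71.51% for Mthfd1l. Within a pool FPKM is proportional to TPM. The shifts with FPKM and with other pseudocounts therefore follow by construction from the constant added before the log. Where no construction is named, the cause was not tested. Member levels were 1.251 times as high when TPM was rescaled to protein-coding genes, and the order of the pools turned for Mthfd1l under 3 scalings and for Shmt1 under TMM and size factors. Depth limits Mthfd1l-204, Folr2 and the genes near 0 most, which rest on few counts. Folr1 also rests on few, 57 and 89.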
